A study of Mus musculus with 16 samples.

Results

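The genes studied here encode collagen chains, the subunits of the triple helical proteins of the extracellular matrix. They were taken as every gene whose symbol reads Col, a type number, a and a chain number, and 42 of the 18193 genes measured on the arrays qualified. By the class of collagen they fall into 11 fibrillar chains, 9 network chains (types IV, VIII and X), 9 chains of the FACIT class (fibril-associated collagens with interrupted triple helices), 5 type VI chains, 4 transmembrane chains and 4 others. The genes Col21a1, Col6a6 and Col28a1 were not analysed here.

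A collagen molecule forms when chains that match at their ends wind into a triple helix in the endoplasmic reticulum, where prolines and lysines are hydroxylated first. Fibrillar collagens are then secreted, trimmed and cross-linked into fibrils, FACIT collagens sit on the surface of those fibrils, and type IV collagen forms the sheet of basement membranes. In the lung, fibroblasts and myofibroblasts of the alveolar walls make most of the fibrillar chains, and alveolar basement membranes hold type IV collagen. In the brain, collagen is found mainly in the meninges and in the walls of vessels.

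The treated mice received dexamethasone, a synthetic agonist of the glucocorticoid receptor, and were set against mice given vehicle. All were C57BL/6J mice harvested at postnatal day 7, and either the whole lung or the whole cerebellum was taken. The 4 groups were dexamethasone lung, vehicle lung, dexamethasone cerebellum and vehicle cerebellum, with 4 arrays each and 16 in all, which the submitters describe as biological replicates. The labels used here give neither dose nor schedule, nor sex or litter. Values are log2 signals, and since each probe set has its own affinity, levels of different genes are not comparable, so comparisons are between groups. In a whole organ, fewer cells of a type and less RNA per cell cannot be told apart.

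The arrays went with their labels. All 5 markers of cerebellar neurons (Zic1, Calb1, Pcp2, Neurod1, Gabra6) were lower in vehicle lung than in vehicle cerebellum, and all 5 lung markers (Sftpc, Scgb1a1, Ager, Sftpa1, Nkx2-1) were higher. Arrays of 1 group correlated at 0.978 to 0.996 and arrays of different organs at 0.749 to 0.83, and no pair was identical. The excess of 3′ over 5′ signal of Gapdh, a measure of RNA integrity, was 0.45 to 0.71 in dexamethasone lungs and 0.84 to 1.04 in vehicle lungs, so the lung groups did not overlap. In cerebella it was 0.05 to 0.18 with dexamethasone and 0.04 to 0.52 with vehicle. The same excess for actin overlapped between the lung groups, at 0.45 to 0.64 with dexamethasone and 0.61 to 0.67 with vehicle. In cerebella the actin excess was 0.54 to 0.58 with dexamethasone and 0.52 to 0.94 with vehicle. The part of RNA integrity in the results was not tested. High Xist, the RNA of the inactive X of females, was seen in 3 of 4 dexamethasone and 1 of 4 vehicle lungs, and in 2 of 4 dexamethasone and 1 of 4 vehicle cerebella. With Xist as a covariate, Col6a3 and Col4a6 in lung and Col26a1 in cerebellum were no longer called.

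Upstream sequence is shown for 3 chains that the results turn on: Col1a2 and Col3a1, which fell in lung, and Col17a1, which had the highest rise there. The RefSeq table of mouse build GRCm38.p6 held such windows for 33 of the 42 genes, 36 windows in all, and Col1a1, Col2a1, Col5a2 and Col4a3 were not among them. Each window holds the 250 bases before the annotated start, written 5′ to 3′ on the gene's strand. Capitals mark matches to CCAAT and to TATAAA on either strand, so that ATTGG marks CCAAT on the opposite strand. The Col1a2 window is chr6:4505368-4505617 on the + strand, that of Col3a1 is chr1:45311288-45311537 on the + strand, and that of Col17a1 is chr19:47692043-47692292 on the - strand.
Col1a2: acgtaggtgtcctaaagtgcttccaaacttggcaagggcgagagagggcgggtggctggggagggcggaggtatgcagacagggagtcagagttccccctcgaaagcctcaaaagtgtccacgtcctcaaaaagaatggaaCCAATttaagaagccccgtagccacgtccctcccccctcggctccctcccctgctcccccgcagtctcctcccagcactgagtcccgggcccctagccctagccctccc
Col3a1: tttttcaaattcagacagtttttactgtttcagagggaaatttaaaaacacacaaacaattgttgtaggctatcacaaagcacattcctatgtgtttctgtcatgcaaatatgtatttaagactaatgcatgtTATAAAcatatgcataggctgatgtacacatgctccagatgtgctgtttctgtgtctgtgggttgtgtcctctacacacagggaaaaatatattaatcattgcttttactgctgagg
Col17a1: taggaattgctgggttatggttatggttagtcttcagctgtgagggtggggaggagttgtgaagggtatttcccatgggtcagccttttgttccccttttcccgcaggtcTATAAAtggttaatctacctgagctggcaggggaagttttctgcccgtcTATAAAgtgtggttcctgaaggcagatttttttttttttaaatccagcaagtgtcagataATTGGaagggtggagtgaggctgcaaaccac
CCAAT on either strand was present in 13 of the 36 windows (36.1%), against 33.8% of 32851 windows of all genes. TATAAA on either strand was present in 5 of the 36 (13.9%), against 12.4% of all windows. The pattern GNACA, then any 3 bases, then TGTNC reads the same on both strands and stands for the palindromic site of the glucocorticoid receptor. It matched 0 of the 36 windows and 0.387% of all windows. A match is a description of letters, not of binding.

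With dexamethasone, lungs had less RNA of most fibrillar chains and more of the membrane-anchored chain Col17a1 and the alveolar basement membrane chain Col4a3. A gene was called where the limma p, adjusted over all genes, was under 0.05. Of the 42 chains 13 fell and 5 rose, which is 42.9%, against 31.2% of all genes called in this comparison. The falls made up 31% of the chains, against 15.5% of all genes, and the rises 11.9%, against 15.7%. The median log2 change of the 42 chains was -0.13, against 0.05 for all genes.

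In cerebellum, 9 chains fell and 0 rose, led by Col2a1 and Col1a1. These are 21.4% of the chains, against 4.8% of all genes called in either direction, 1.97% called lower and 2.84% called higher. At an unadjusted p under 0.05 in limma, 1 chain was higher, Col19a1. The median log2 change of the 42 chains was -0.26, against 0.01 for all genes. In lung all dexamethasone arrays lay below all vehicle arrays for 16 chains and above them for 4, where 15.5% and 15.1% of all genes did so. In cerebellum 14 chains lay wholly below and 0 wholly above, where 5.44% and 7.13% of all genes did so.

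Col1a1, Col3a1, Col5a2 and Col11a1 fell in both organs. They are 30.8% of the chains that fell in lung and 44.4% of those that fell in cerebellum. Over all genes, 4.01% of those that fell in lung and 31.6% of those that fell in cerebellum fell in both organs. Col11a1 was the least firm of the 4 chains. Its lung fall was called with 1 of its 2 probe sets, and its cerebellar call was lost when any of 6 single arrays was left out. Another 14 chains (33.3%, against 29.2% of all genes) were called in lung but not in cerebellum. In cerebellum but not in lung 5 were called (11.9%, against 2.84%), and in neither organ 19 (45.2%, against 66%). The change itself differed between the organs for 10 chains (23.8%, against 21.3% of all genes), 4 with the higher log2 change in lung (9.85% of all genes) and 6 with the lower (11.5%).

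**Figure D1:**
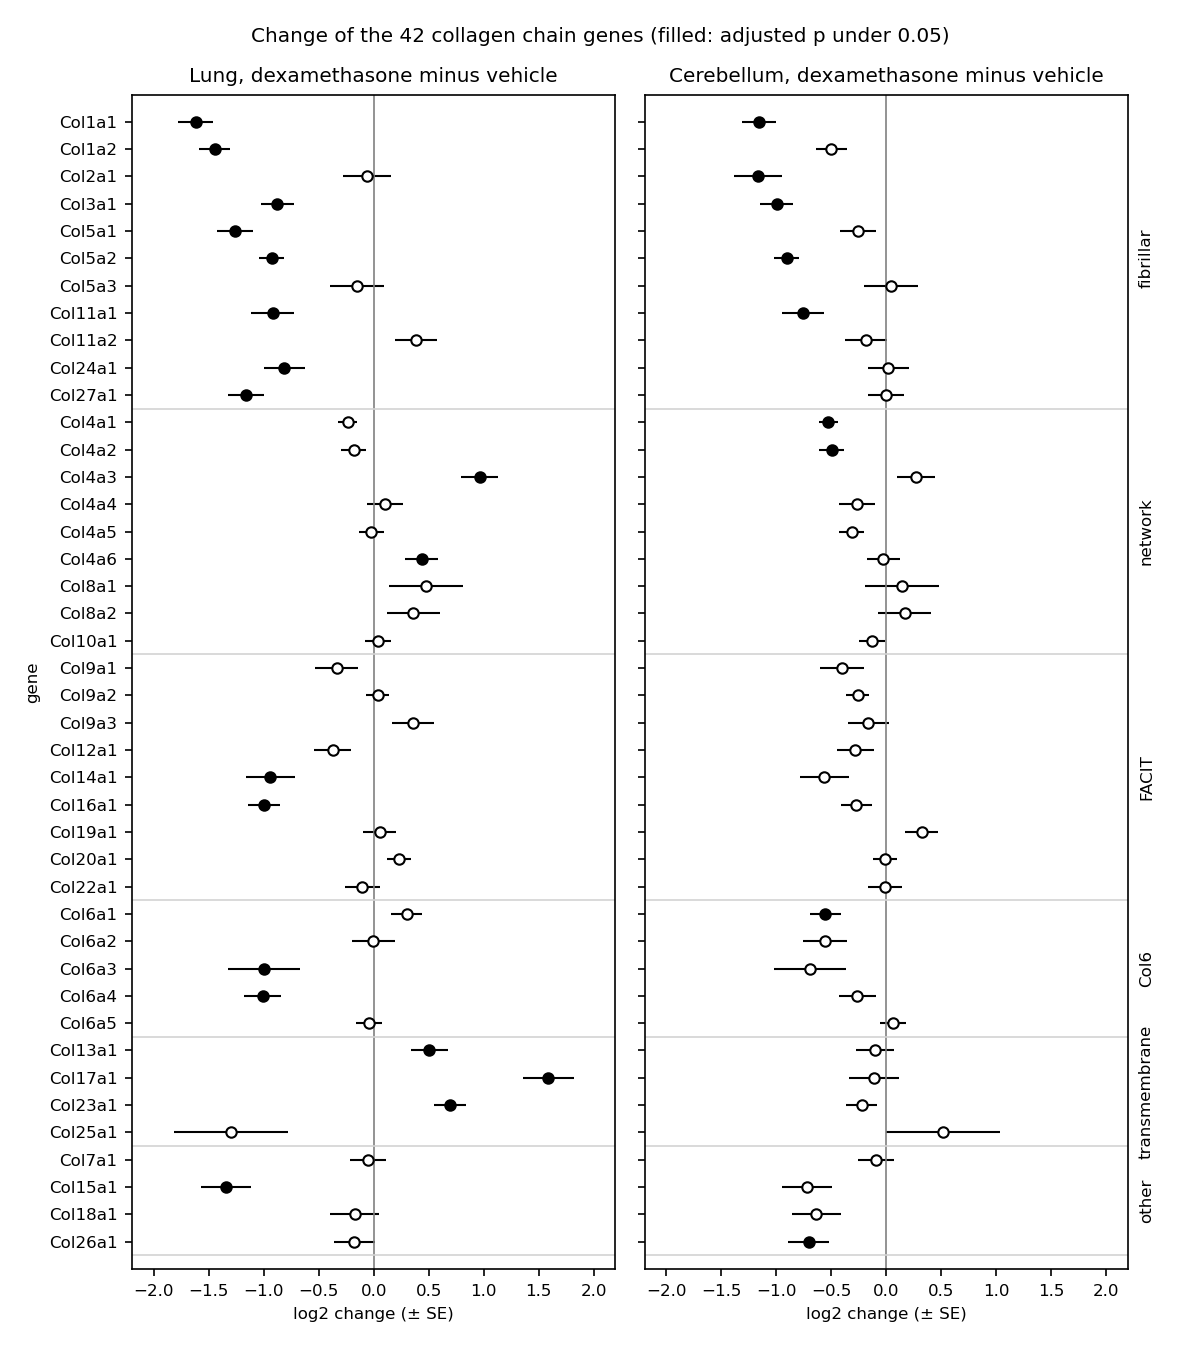
The log2 change of the 42 collagen chain genes, dexamethasone minus vehicle, in lung (left) and cerebellum (right), with standard errors; filled points have an adjusted p under 0.05. Most fibrillar chains lie left of 0 in lung, Col17a1 lies farthest right at 1.59, and no filled point lies right of 0 in cerebellum.

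Type I collagen, the main fibril of connective tissue, is built of Col1a1 and Col1a2 chains, and both fell in lung. Arrays are given in the order B28, B31, B40 and B46 for dexamethasone lungs and B12, B14, B19 and B22 for vehicle lungs. Col1a1 had log2 signals of 11.09, 10.96, 10.85 and 10.3 in dexamethasone lungs, against 12.38, 12.63, 12.09 and 12.59 in vehicle lungs. The groups did not overlap, and B46 was the lowest. The fall was 3.08-fold (log2 change -1.62 ± 0.16 SE, limma adjusted p = 9.84e-07). Col1a2 had 12.49, 12.43, 12.18 and 11.66 in dexamethasone lungs, against 13.68, 13.69, 13.51 and 13.67 in vehicle lungs, again with no overlap and B46 lowest. It fell 2.73-fold (log2 change -1.45 ± 0.14, limma adjusted p = 9.88e-07). A dimmer probe set of Col1a1 fell less, by 0.70 on the log2 scale.

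Array B46 was the lowest of its group for 10 of the 13 chains that fell in lung, with a mean deviation of -0.41 from the group mean. Without it 19 chains were called in lung, and Col1a1 and Col1a2 changed by -1.45 and -1.27 on the log2 scale.

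The other widely expressed fibrillar chains also fell in lung. Col3a1, whose homotrimer runs with type I fibrils in elastic tissues, had 13.45, 13.36, 13.21 and 12.72 in dexamethasone lungs, against 14.08, 14.1, 14.05 and 14.01 in vehicle lungs. The groups were apart, and the vehicle arrays spanned a narrow range close to the highest signal on any array, 14.83. Col3a1 fell 1.84-fold (log2 change -0.88 ± 0.15, limma adjusted p = 0.000263), and its dimmer probe set fell by 1.89 on the log2 scale. Whether nearness to the highest signal played a part was not tested. Type V collagen, which sets the diameter of type I fibrils, is built of Col5a1 and Col5a2. Col5a1 had 8.7, 8.8, 8.92 and 8.6 in dexamethasone lungs, against 9.89, 10.31, 9.68 and 10.19 in vehicle lungs. Col5a2 had 11.69, 11.56, 11.4 and 11.51 in dexamethasone lungs, against 12.45, 12.55, 12.31 and 12.56 in vehicle lungs. Neither chain overlapped between the groups, and B46 stood out in neither. Col5a1 fell 2.4-fold (log2 change -1.26 ± 0.17, limma adjusted p = 2.23e-05) and Col5a2 1.9-fold (-0.93 ± 0.12, limma adjusted p = 1.3e-05).

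Of the remaining fibrillar chains, Col27a1, Col24a1 and Col11a1 fell in lung too, so that 8 of 11 fibrillar chains fell and 0 rose. The falls made up 72.7% of the class, against 15.5% of all genes. By limma 0 fibrillar chains were higher in lung at an unadjusted p under 0.05 either. Col27a1 and Col24a1, named because they were called and after their values were seen, are fibrillar chains known mainly from cartilage and bone. Col27a1 had 8.8, 8.79, 8.72 and 7.96 in dexamethasone lungs, against 9.47, 9.98, 9.68 and 9.79 in vehicle lungs, a 2.23-fold fall (limma adjusted p = 4.77e-05). Col24a1 was dim, at 3.72 to 4.17 in dexamethasone lungs and 4.23 to 5.32 in vehicle lungs, and fell 1.76-fold (limma adjusted p = 0.00319). Col11a1, a chain of cartilage fibrils, was at 4.09 to 4.54 in dexamethasone lungs and 4.75 to 5.81 in vehicle lungs and fell 1.89-fold (limma adjusted p = 0.00169). Its other probe set did not show this, with a log2 change of 0.12, and with the mean of both the fall was no longer called. Col2a1, Col5a3 and Col11a2 were not called in lung, with log2 changes of -0.06, -0.15 and 0.39.

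In the cerebellum 5 of the 11 fibrillar chains fell (45.5%, against 1.97% of all genes). Arrays are given in the order B39, B49, B50 and B52 for dexamethasone cerebella and B78, B79, B80 and B81 for vehicle cerebella. Col1a1 had 8.33, 8.33, 8.23 and 8.33 in dexamethasone cerebella, against 9.56, 9.57, 9.17 and 9.54 in vehicle cerebella. The treated arrays lay within 0.1 of each other and below every vehicle array, a 2.23-fold fall (log2 change -1.16 ± 0.16, limma adjusted p = 0.000539). Its partner Col1a2 had 10.22, 10.3, 10.33 and 10.15 in dexamethasone cerebella, against 10.68, 10.93, 10.65 and 10.74 in vehicle cerebella. These groups were also apart, but the log2 change of -0.50 ± 0.14 missed the threshold (limma adjusted p = 0.0512). A dimmer probe set of Col1a2 passed it, with a log2 change of -0.79 (limma adjusted p = 0.0085, adjusted over all probe sets).

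Col3a1 had 10.45, 10.8, 10.81 and 10.81 in dexamethasone cerebella, against 11.76, 12.03, 11.45 and 11.61 in vehicle cerebella, and fell 1.99-fold (log2 change -0.996 ± 0.15, limma adjusted p = 0.00107). Col5a2 had 8.38, 8.87, 8.69 and 8.58 in dexamethasone cerebella, against 9.43, 9.78, 9.38 and 9.54 in vehicle cerebella, and fell 1.87-fold (-0.91 ± 0.12, limma adjusted p = 0.000332). For both chains every dexamethasone array lay below every vehicle array. Col5a1, which pairs with Col5a2, overlapped between the groups, at 7.01 to 7.46 in dexamethasone cerebella and 6.98 to 7.73 in vehicle cerebella. Its log2 change was -0.26 ± 0.17 (limma adjusted p = 0.502).

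Col2a1 and Col11a1, chains of cartilage fibrils, were the other fibrillar chains that fell in cerebellum. Col2a1, the chain of type II collagen, had 6.86, 7.85, 7.39 and 8.11 in dexamethasone cerebella, against 8.59, 8.77, 8.86 and 8.67 in vehicle cerebella. The dexamethasone arrays were spread over 1.25 log2 units, yet all lay below the vehicle arrays. The fall was 2.25-fold (log2 change -1.17 ± 0.215, limma adjusted p = 0.00441). Col11a1 had 7.92, 7.43, 7.56 and 7.59 in dexamethasone cerebella, against 8.16, 8.38, 8.25 and 8.73 in vehicle cerebella. It fell 1.69-fold (limma adjusted p = 0.0335), a call lost when any of 6 single cerebellar arrays was left out (highest adjusted p = 0.1). Other chains known from cartilage were not called there, among them Col9a1 with a log2 change of -0.40, Col9a2 with -0.26, Col9a3 with -0.16 and Col11a2 with -0.19. The 9 cartilage markers (among them Acan, Matn1, Comp and Sox9) had a mean level of 5.12 to 5.23 in dexamethasone cerebella and 4.95 to 5.17 in vehicle cerebella, and 0 of 9 were called in either organ (1 was lower in cerebellum at an unadjusted limma p under 0.05).

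**Figure D2:**
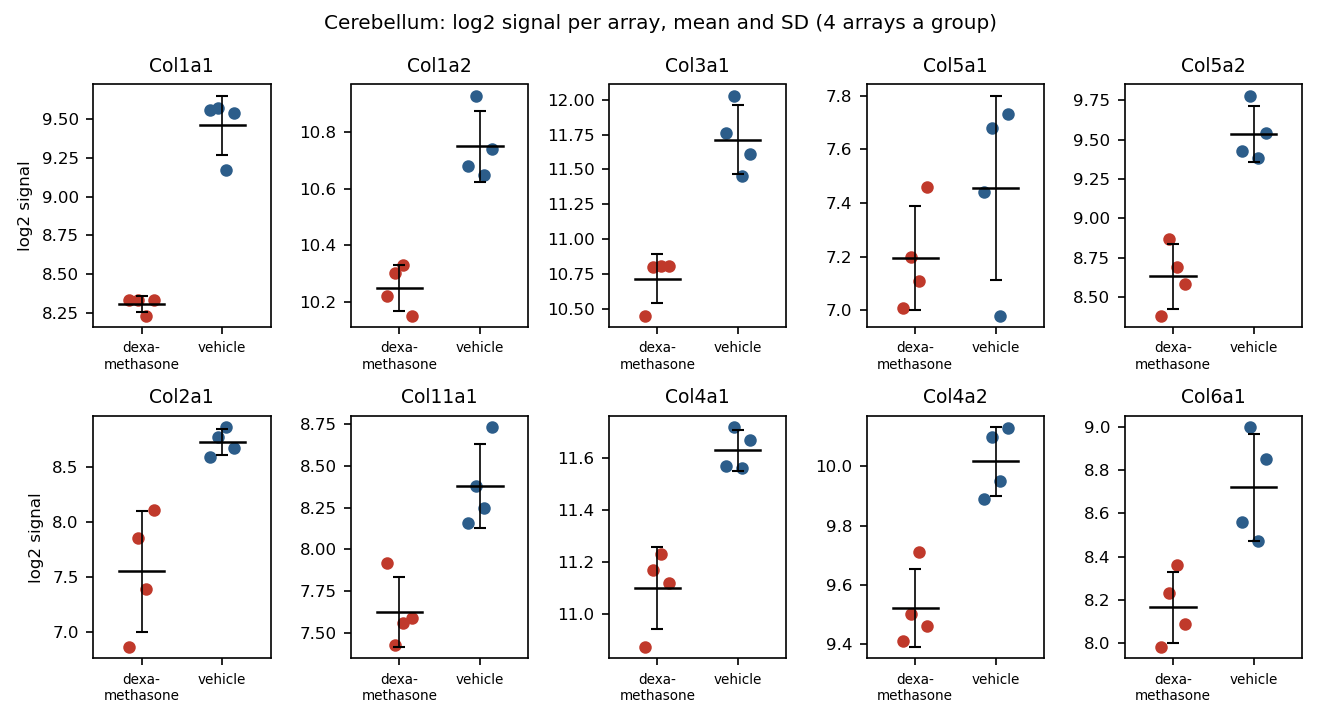
Log2 signal of 10 collagen chain genes in each cerebellar array, dexamethasone left and vehicle right, with group mean and SD of 4 arrays. The groups are apart in every panel except that of Col5a1, where 1 vehicle array lies at 6.98.

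The fibrillar response differed between the organs for 5 of 11 chains (45.5%, against 21.3% of all genes). Col2a1 differed through its fall in cerebellum, with a log2 change of -0.06 in lung and -1.17 in cerebellum (difference 1.11 ± 0.30, limma adjusted p = 0.0156). Col1a2, Col5a1, Col27a1 and Col24a1 had the lower change in lung. Their lung minus cerebellum differences were -0.95 (adjusted p = 0.00269), -1.003 (0.00572), -1.16 (0.00198) and -0.83 (0.034). The call of Col24a1 was lost when any of 9 single arrays was left out. Col24a1 was near the lowest signals in cerebellum, at 3.93 to 4.06 with dexamethasone and 3.57 to 4.3 with vehicle, which left little room to measure a fall. The differences of Col5a2 and Col3a1 were -0.02 ± 0.16 and 0.12 ± 0.21 and not called. The brightest probe set of Col3a1 is near the highest signals in lung. Its dimmer probe set changed by -1.89 in lung and -1.44 in cerebellum, a difference of -0.45 that was not called either.

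**Figure D3:**
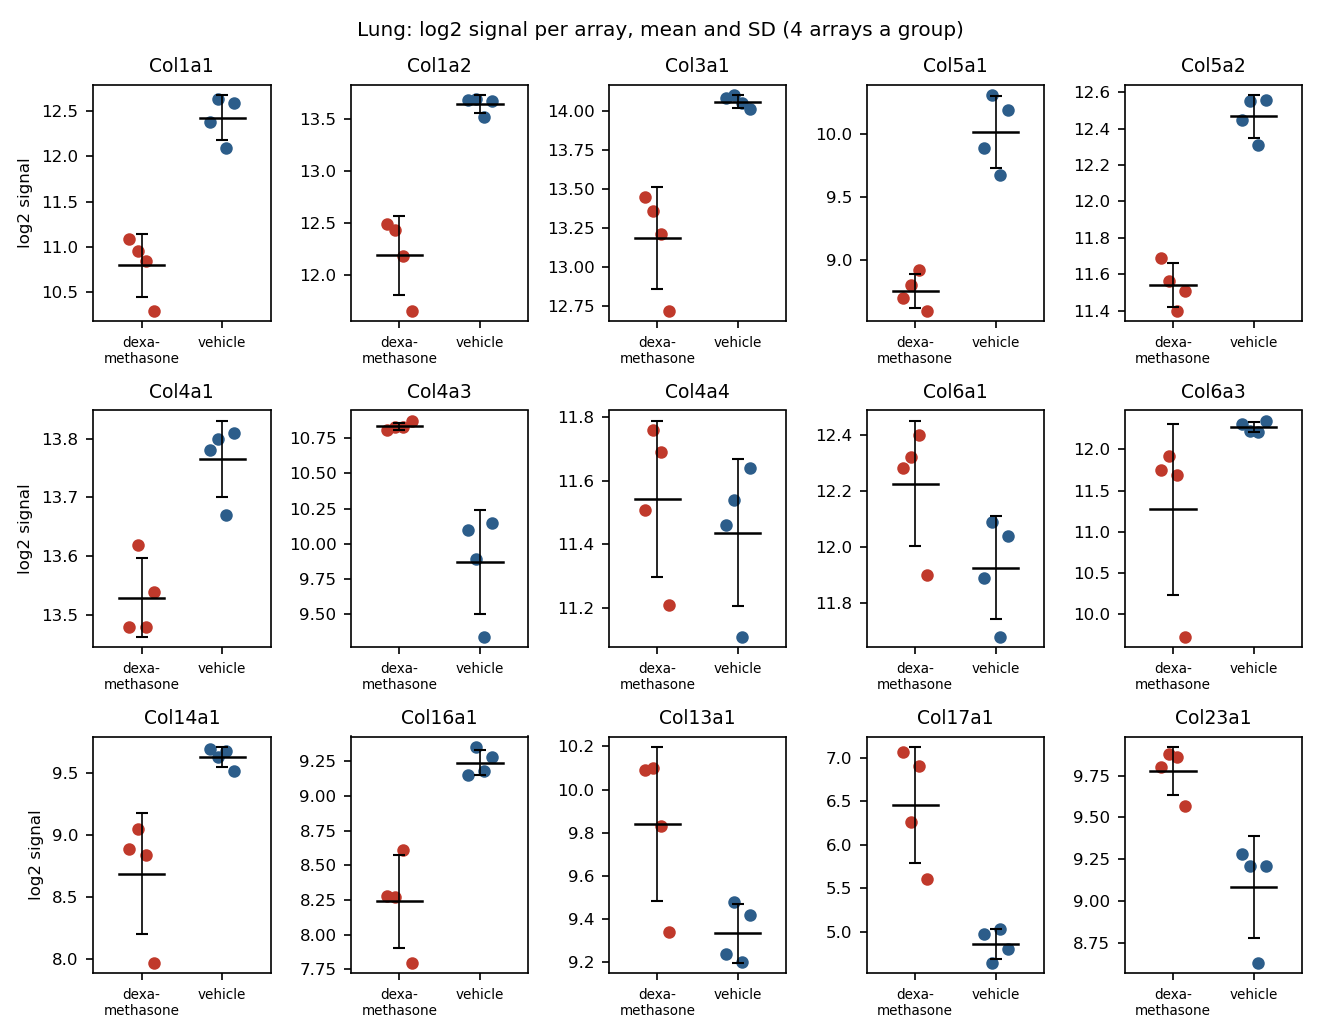
Log2 signal of 15 collagen chain genes in each lung array, dexamethasone left and vehicle right, with group mean and SD of 4 arrays. The fibrillar chains in the top row lie lower with dexamethasone with no overlap, Col17a1 and Col23a1 lie higher, and in Col6a3 array B46 stands apart at 9.73.

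Of the 9 network chains, 2 rose and 0 fell in lung, and 2 fell and 0 rose in cerebellum. Each 2 is 22.2% of the class, against 15.7% of all genes called higher in lung and 1.97% called lower in cerebellum. At an unadjusted p under 0.05 in limma, 1 was lower in lung and 0 were higher in cerebellum. Col4a3 forms, with Col4a4 and Col4a5, the type IV trimer of mature alveolar and glomerular basement membranes. Col4a3 had 10.81, 10.83, 10.83 and 10.87 in dexamethasone lungs, against 10.1, 9.89, 9.34 and 10.15 in vehicle lungs. Treated lungs spanned 0.06, above every vehicle lung, and the rise was 1.95-fold (log2 change 0.96 ± 0.17, limma adjusted p = 0.000412). A dimmer probe set of Col4a3 rose by 1.21 on the log2 scale.

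The partner chains of Col4a3 did not pass the test in lung. Col4a4 had 11.51, 11.76, 11.69 and 11.21 in dexamethasone lungs, against 11.46, 11.54, 11.11 and 11.64 in vehicle lungs, with overlap (log2 change 0.10 ± 0.17, limma adjusted p = 0.69). Col4a5 had 10.78, 10.95, 11.11 and 10.71 in dexamethasone lungs, against 10.92, 10.93, 10.9 and 10.89 in vehicle lungs, also with overlap (-0.02 ± 0.115, limma adjusted p = 0.918). Another probe set of Col4a5 had a log2 change of 0.85 (limma adjusted p = 0.000964), so its probe sets disagree. Col4a6, found in basement membranes of smooth muscle and skin, had 6.88, 7.36, 7.35 and 6.8 in dexamethasone lungs, against 6.5, 6.93, 6.68 and 6.53 in vehicle lungs. It rose 1.35-fold with overlapping groups (limma adjusted p = 0.0347), and the call was lost in 8 of 24 alternatives, among them leaving out B31, B40, B12, B19 or B22. The other probe set of Col4a6 had a log2 change of -0.05 in lung, and the mean of both had 0.195 (limma adjusted p = 0.287).

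Col4a1 and Col4a2, the chains of the type IV trimer in nearly every basement membrane, fell in cerebellum. Col4a1 had 10.87, 11.17, 11.23 and 11.12 in dexamethasone cerebella, against 11.57, 11.72, 11.56 and 11.67 in vehicle cerebella (1.44-fold lower, log2 change -0.53 ± 0.09, limma adjusted p = 0.00216). A dimmer probe set of Col4a1 had -0.37 in cerebellum and was not called (limma adjusted p = 0.0896, adjusted over all probe sets). Col4a2 had 9.41, 9.5, 9.71 and 9.46 in dexamethasone cerebella, against 9.89, 10.1, 9.95 and 10.13 in vehicle cerebella (1.41-fold lower, -0.50 ± 0.11, limma adjusted p = 0.0173). Both chains were apart between the groups, and Col4a2 was no longer called without B79 or B81. In lung Col4a1 had 13.48, 13.62, 13.48 and 13.54 with dexamethasone, against 13.78, 13.8, 13.67 and 13.81 with vehicle. These did not overlap, but the log2 change of -0.235 ± 0.09 missed the threshold (limma adjusted p = 0.0505). Col4a2 overlapped in lung, at 12.41 to 12.73 with dexamethasone and 12.41 to 12.9 with vehicle (-0.18 ± 0.11, limma adjusted p = 0.255).

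For the cerebellar type IV chains other than these, log2 changes ran between -0.315 for Col4a5 and 0.27 for Col4a3. The type VIII chains of endothelial and corneal matrices, Col8a1 and Col8a2, had log2 changes of 0.48 and 0.36 in lung and 0.14 and 0.17 in cerebellum. Col10a1, the chain of hypertrophic cartilage, had 0.04 in lung and -0.13 in cerebellum. None of these 3 was called in either organ. With the brightest probe sets, no network chain differed between the organs at the threshold, and 3 of the 9 did at an unadjusted limma p under 0.05. Col4a3 came closest, with a difference of 0.69 ± 0.24 (limma adjusted p = 0.0532). Dimmer probe sets of 2 chains passed the threshold, adjusted over all probe sets. That of Col4a3 had a difference of 0.94 (limma adjusted p = 0.00317) and that of Col4a5 1.10 (limma adjusted p = 0.00361). For Col4a3 and Col4a5 the result therefore depends on the probe set.

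Markers of endothelial cells, which line vessels, and of pericytes, which wrap them, were counted beside the type IV chains. In lung 0 network chains were called lower, and in cerebellum 2 were. For all genes the shares called lower were 15.5% in lung and 1.97% in cerebellum. Of 8 endothelial markers (Pecam1, Cdh5, Kdr, Tek, Cldn5, Esam, Emcn, Tie1) 5 fell in lung and 5 in cerebellum. Their mean level was 10.01 to 10.24 in dexamethasone lungs and 10.61 to 10.86 in vehicle lungs, and 6.77 to 6.96 in dexamethasone cerebella and 7.47 to 7.76 in vehicle cerebella. Of 6 pericyte markers 4 fell and 1 rose in lung, and 5 fell in cerebellum, where their mean level was 8.15 to 8.38 with dexamethasone and 8.76 to 8.87 with vehicle. Their part in the change of Col4a1 and Col4a2 was not tested.

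Of the FACIT chains, 2 of 9 fell in lung and 0 were called in cerebellum. The 2 are 22.2% of the class, against a share of 15.5% called lower in lung over all genes. In cerebellum 2 were lower and 1 higher at an unadjusted limma p under 0.05. Col14a1, which bridges neighbouring fibrils, had 8.89, 9.05, 8.84 and 7.97 in dexamethasone lungs, against 9.69, 9.63, 9.68 and 9.52 in vehicle lungs. The groups were apart with B46 lowest, and the fall was 1.92-fold (log2 change -0.94 ± 0.22, limma adjusted p = 0.00361). Both other probe sets of Col14a1 were near 0, at -0.04 and -0.05, so the fall rests on the brightest. Col16a1, found at the dermal junction and in cartilage, had 8.28, 8.27, 8.61 and 7.8 in dexamethasone lungs, against 9.15, 9.35, 9.18 and 9.28 in vehicle lungs. It fell 2-fold (-1.001 ± 0.145, limma adjusted p = 6.05e-05), with no overlap. In cerebellum Col16a1 overlapped (log2 change -0.27), and the difference between the organs was -0.73 ± 0.21 (limma adjusted p = 0.0179).

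Col12a1, a FACIT chain of tendon and other loaded tissues, was not called in lung with its brightest probe set (log2 change -0.37 ± 0.17, limma adjusted p = 0.113). The groups did not overlap, at 5.83 to 6.11 in dexamethasone lungs and 6.18 to 6.58 in vehicle lungs. A second probe set of nearly the same brightness had a log2 change of -1.45 (limma adjusted p = 0.000141). Col9a3, whose product sits on type II collagen fibrils, had 9.24, 9.09, 9.14 and 9.38 in dexamethasone cerebella, against 9.3, 9.66, 9.07 and 9.47 in vehicle cerebella, with overlap (-0.16 ± 0.19, limma adjusted p = 0.78). Col9a1, Col9a2, Col19a1, Col20a1 and Col22a1 were called in neither organ, with log2 changes of -0.34 to 0.23 in lung and -0.40 to 0.32 in cerebellum.

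Type VI collagen forms beaded microfibrils around cells, built of Col6a1, Col6a2 and one of several longer chains. In lung, Col6a3 and Col6a4 fell while Col6a1 and Col6a2 were not called. Col6a3 had 11.75, 11.92, 11.69 and 9.73 in dexamethasone lungs, against 12.31, 12.22, 12.21 and 12.34 in vehicle lungs. All treated arrays lay lower, and B46 lay 1.96 log2 units below the next array. The log2 change was -0.998 ± 0.33 (limma adjusted p = 0.028), and -0.485 without B46 (limma adjusted p = 0.00285). The call of Col6a3 was lost when the lung arrays were fitted alone, and without B12, B14 or B22. Col6a4, a chain related to Col6a3, had 5.33, 5.69, 5.46 and 6 in dexamethasone lungs, against 6.49, 6.4, 6.6 and 7.04 in vehicle lungs, a 2.02-fold fall (limma adjusted p = 0.000242). Its second probe set, dimmer, had a log2 change of 0.28 and was not called.

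Col6a1 had 12.28, 12.32, 12.4 and 11.9 in dexamethasone lungs, against 11.89, 12.09, 11.68 and 12.04 in vehicle lungs (log2 change 0.30 ± 0.14, limma adjusted p = 0.121). Col6a2 had 12.34, 12.45, 12.55 and 11.39 in dexamethasone lungs, against 12.1, 12.26, 12.09 and 12.28 in vehicle lungs (-0.003 ± 0.20, limma adjusted p = 0.995). In both, B28, B31 and B40 lay above every vehicle array and B46 did not. Without B46 Col6a1 was called, with a log2 change of 0.41 (limma adjusted p = 0.0331), and Col6a2 had 0.26 (limma adjusted p = 0.144).

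In cerebellum Col6a1 fell, at 7.98, 8.23, 8.36 and 8.09 with dexamethasone, against 8.56, 9, 8.47 and 8.85 with vehicle. The fall was 1.47-fold (log2 change -0.555 ± 0.14, limma adjusted p = 0.0306), without overlap, and was no longer called without B39, B49, B52, B79 or B81. Col6a2 was at 8.16 to 8.58 in dexamethasone cerebella and 8.75 to 9.27 in vehicle cerebella, and Col6a3 was at 7.38 to 7.59 with dexamethasone and 7.98 to 8.47 with vehicle. Both were apart between the groups, with log2 changes of -0.56 and -0.69, yet not called (limma adjusted p = 0.131 and 0.296). The spread that these tests use is shared with the lung groups, where B46 lies apart. Without B46, or with the cerebellar arrays alone, both were called, while the cerebellar arrays alone lost the call of Col6a1 (limma adjusted p = 0.0516). The change of Col6a1 differed between lung and cerebellum by 0.855 ± 0.20 (limma adjusted p = 0.00556) and that of Col6a4 by -0.75 ± 0.24 (limma adjusted p = 0.0362). That of Col6a4 was lost with the mean of its probe sets, at -0.215, and when any of 9 single arrays was left out. Col6a5 was near the lowest signals, at 3.69 to 4.35 in every array.

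Of the 4 transmembrane chains, which stay anchored in the cell membrane, 3 rose in lung and 0 were called in cerebellum. The 3 are 75% of the class, against 15.7% of all genes called higher in lung. In cerebellum 0 of the 4 had an unadjusted limma p under 0.05. Col17a1, the hemidesmosome collagen of basal epithelial cells, had 7.06, 6.26, 6.9 and 5.61 in dexamethasone lungs, against 4.98, 4.65, 5.03 and 4.81 in vehicle lungs. Vehicle lungs were close to the level of all 8 cerebella, 4.11 to 4.64, and every treated lung lay higher, B46 least. The rise was 3.01-fold (log2 change 1.59 ± 0.23, limma adjusted p = 5.94e-05). It differed by 1.70 ± 0.33 from the log2 change in cerebellum, -0.11 (limma adjusted p = 0.00135).

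Col23a1, a transmembrane chain found in lung and other epithelia, had 9.8, 9.88, 9.86 and 9.57 in dexamethasone lungs, against 9.28, 9.21, 8.63 and 9.21 in vehicle lungs. It rose 1.62-fold with no overlap (log2 change 0.69 ± 0.14, limma adjusted p = 0.00133), and both its other probe sets rose, by 0.88 and 0.71. In cerebellum Col23a1 had 8.8, 8.93, 8.74 and 8.92 with dexamethasone, against 8.93, 9.42, 9.06 and 8.88 with vehicle (-0.225 ± 0.14, limma adjusted p = 0.494). The change differed between lung and cerebellum by 0.92 ± 0.20 (limma adjusted p = 0.00377). Col13a1, found at cell adhesion sites and at the neuromuscular junction, had 10.09, 10.1, 9.83 and 9.34 in dexamethasone lungs, against 9.24, 9.48, 9.2 and 9.42 in vehicle lungs. It rose 1.42-fold (limma adjusted p = 0.0315) with B46 inside the vehicle range, and the call was lost without B28, B31, B40, B12 or B19. Col25a1, a neuronal chain, was at 7.69, 7.98, 8.15 and 5.94 in dexamethasone lungs and 8.59 to 8.93 in vehicle lungs. Its log2 change of -1.30 ± 0.52 missed the threshold (limma adjusted p = 0.0683).

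Of the 4 chains outside these classes, Col15a1 fell in lung and Col26a1 in cerebellum. Col15a1, a basement membrane zone proteoglycan of vessels and muscle, had 6.58, 6.98, 6.32 and 5.88 in dexamethasone lungs, against 7.51, 7.89, 7.63 and 8.13 in vehicle lungs. The fall was 2.55-fold without overlap (log2 change -1.35 ± 0.23, limma adjusted p = 0.000252). In cerebellum Col15a1 was apart too, at 5.89 to 6.79 with dexamethasone and 6.91 to 7.49 with vehicle, but not called (-0.72 ± 0.23, limma adjusted p = 0.0851). Col26a1, known from developing testis and ovary, had 7.41, 6.95, 7.34 and 6.66 in dexamethasone cerebella, against 7.97, 7.75, 7.67 and 7.78 in vehicle cerebella. It fell 1.63-fold (limma adjusted p = 0.0371), a call lost in 10 of 24 alternatives, among them leaving out any of 8 single arrays. Its other probe set, which was dim, had a log2 change of -0.02, and the mean of both had -0.36 (limma adjusted p = 0.0868). Col18a1, the precursor of endostatin, had log2 changes of -0.17 in lung and -0.64 in cerebellum, where the groups were apart (limma adjusted p = 0.127). Col7a1, of the anchoring fibrils of skin, had -0.05 in lung and -0.09 in cerebellum.

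Chains that share a trimer were set against each other. For 7 pairs the difference of the log2 signals of the chains was formed on each array and compared between treatments in each organ, 14 exact two-sided permutation tests in all, a comparison chosen after the values were seen. With 4 arrays against 4 the smallest possible p is 0.0286, and 7 of the 14 tests reached it. After Benjamini-Hochberg adjustment over the 14 permutation tests these had 0.0571, so none was called. The level of such a difference has no meaning across probe sets, and only its shift between treatments is read. In lung, Col4a3 minus Col4a4 was -0.93 to -0.34 with dexamethasone and -1.77 to -1.36 with vehicle, a shift of 0.86 ± 0.16. Col4a3 minus Col4a5 shifted by 0.98 ± 0.21, but by 0.36 with the next brightest probe sets. Col6a1 minus Col6a2 shifted by 0.30 ± 0.16 and Col6a3 minus Col6a1 by -1.30 ± 0.42. In both, B46 was the dexamethasone array farthest from the vehicle arrays, at 0.509 and -2.165, so these shifts lean on it. The 4 lung pairs named here did not overlap between the treatments.

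In cerebellum, Col1a1 minus Col1a2 was -2.10 to -1.81 with dexamethasone and -1.48 to -1.12 with vehicle, a shift of -0.66 ± 0.10 without overlap. The brightest probe sets of Col1a1 and Col1a2 had log2 changes of -1.16 and -0.50 there. The next brightest had -1.17 and -0.79, so the shift was smaller with them. In lung the same pair overlapped, with a shift of -0.17 ± 0.09, which turned to 0.79 when the next brightest probe set of each chain was used. Col5a1 minus Col5a2 shifted by 0.65 ± 0.17 in cerebellum and Col4a3 minus Col4a4 by 0.53 ± 0.15, both without overlap. Col4a3 and Col4a4 were dim in cerebella, at 5.25 to 5.95 and 4.87 to 5.73. Col4a1 and Col4a2, whose annotations overlap by 85 bases, had shifts of -0.05 ± 0.11 in lung and -0.03 ± 0.06 in cerebellum.

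**Figure D4:**
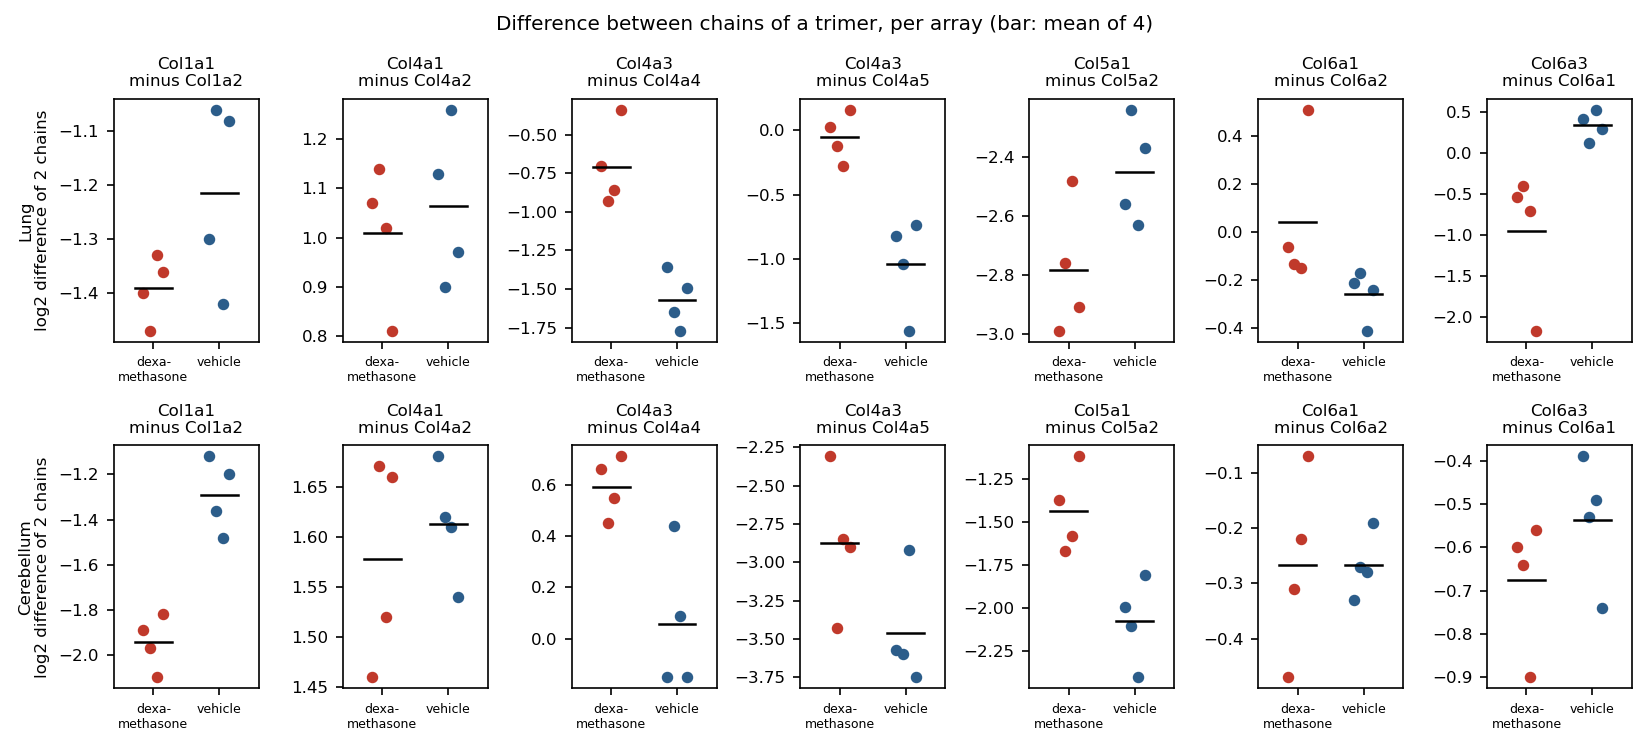
Difference in log2 signal between 2 chains of a trimer on each array, lung above and cerebellum below, dexamethasone left and vehicle right, with the mean of 4 arrays as a bar. Each chain is shown by its brightest probe set, and only the shift between treatments can be read. With dexamethasone Col4a3 minus Col4a4 is shifted by 0.86 in lung and Col1a1 minus Col1a2 by -0.66 in cerebellum.

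The 2 organs differed in most chains without treatment. In vehicle mice 22 of the 42 chains were higher and 9 lower in lung than in cerebellum, 73.8% called, against 57.7% of all genes (28% higher and 29.7% lower). Arrays of the organs did not overlap for 21 chains that were higher in lung and 9 that were lower, where 27.4% and 29% of all genes did so. The widest gaps above were in chains of the alveolar basement membrane and of fibril surfaces. Col4a4 had a log2 signal of 11.44 ± 0.23 in vehicle lung and 5.38 ± 0.33 in vehicle cerebellum (SD, n = 4 each), a difference of 6.06 (limma adjusted p = 7.87e-15). Col4a3 had 9.87 ± 0.37 in vehicle lung and 5.44 ± 0.26 in vehicle cerebellum, a difference of 4.44. Col14a1 had 9.63 ± 0.08 in vehicle lung and 5.31 ± 0.45 in vehicle cerebellum, a difference of 4.32, which was 2.32 with the mean of its 3 probe sets.

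Chains known from cartilage fibrils were among the 9 that were lower in lung. Col9a3 had 5.31 ± 0.19 in vehicle lung and 9.37 ± 0.25 in vehicle cerebellum, a difference of -4.07. Col9a1 had 5.25, 4.24, 4.71 and 4.85 in vehicle lungs, against 8.73, 8.74, 8.36 and 8.6 in vehicle cerebella. The organs did not overlap, and the difference was -3.85, or -2.46 with the mean of its probe sets. Col11a1 had 5.23 ± 0.47 in vehicle lung and 8.38 ± 0.25 in vehicle cerebellum (-3.15). Col2a1, Col19a1, Col26a1 and Col8a1 were lower in lung as well, with differences of -2.70, -2.86, -2.385 and -1.74. The mean level of the 9 cartilage markers was 5.2 to 5.32 in vehicle lungs and 4.95 to 5.17 in vehicle cerebella. Singly, 3 of these markers were called higher in lung, 2 lower and 4 not called. The type I, III, V and VI chains lay between 2.35 and 4.09 log2 units higher in lung, Col5a3, Col6a4 and Col6a5 excepted.

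**Figure D5:**
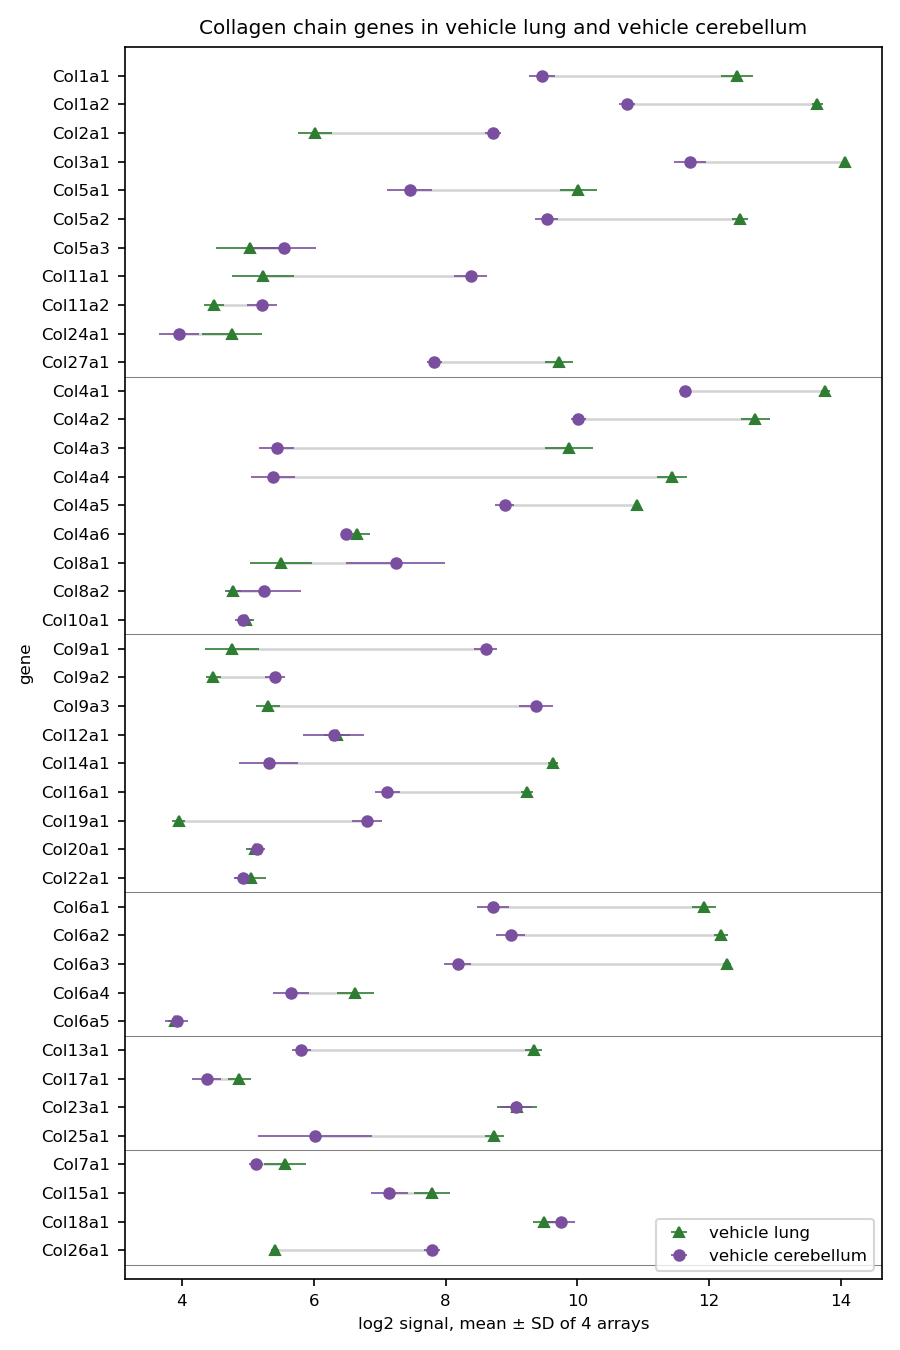
Log2 signal of the 42 collagen chain genes in vehicle lung (triangles) and vehicle cerebellum (circles), mean and SD of 4 arrays each. The type IX chains, Col2a1, Col11a1 and Col19a1 lie to the left in lung, and Col4a3, Col4a4 and the type I, III and VI chains to the right.

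The machinery that modifies and cross-links collagen moved in both directions in lung. Of 16 hydroxylases and chaperones, 6 fell and 2 rose in lung and 1 fell in cerebellum. Over all genes, 15.5% were called lower and 15.7% higher in lung, and 1.97% lower in cerebellum. The 2 that rose are catalytic subunits of prolyl 4-hydroxylase, P4ha2, 2.81-fold (limma adjusted p = 7.66e-06), and P4ha1, 1.7-fold (limma adjusted p = 4.63e-05). The third subunit gene, P4ha3, fell 3.41-fold (limma adjusted p = 2.07e-06), and the prolyl 3-hydroxylase family member P3h3 fell 3.05-fold. Crtap, a partner of prolyl 3-hydroxylase, fell in both organs, 1.76-fold in lung and 1.54-fold in cerebellum (limma adjusted p = 0.00694). Serpinh1, the collagen chaperone HSP47, was 11.06 in dexamethasone lung and 11.69 in vehicle lung and fell 1.55-fold (limma adjusted p = 0.00802).

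Of 9 genes for propeptide trimming and cross-linking, 3 fell and 1 rose in lung and 1 fell in cerebellum. The shares over all genes were 15.5% lower and 15.7% higher in lung and 1.97% lower in cerebellum. Lox, the lysyl oxidase that starts cross-links, rose 2.12-fold in lung (limma adjusted p = 1.11e-05), and its relatives Loxl3 and Loxl1 fell 1.67-fold and 1.48-fold. Bmp1, which cuts the C-terminal propeptide, fell 1.83-fold in lung. Loxl1 fell 2-fold in cerebellum (limma adjusted p = 0.00147). Of 13 small proteoglycans and fibril-associated proteins, 6 fell in lung, among them Fmod 3.95-fold, Lum 2.71-fold, Postn 2.51-fold and Aspn 2.41-fold, while 2 fell in cerebellum, Fn1 1.67-fold and Bgn 1.37-fold.

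Of 8 collagen receptors 4 fell in lung, the integrin chains Itga1 3.25-fold and Itga2 2.08-fold, the receptor tyrosine kinase Ddr2 2.73-fold and the uptake receptor Mrc2 2.56-fold. In cerebellum Itga1 fell 1.63-fold (limma adjusted p = 0.0199) and the other 7 were not called. Of 12 basement membrane partners 9 fell in lung and 5 in cerebellum. Among all genes 15.5% were called lower and 15.7% higher in lung, and 1.97% lower in cerebellum. All 5 that fell in cerebellum, Lama2, Nid1, Lamb1, Nid2 and Lama4, fell in lung as well, Nid2 2.56-fold there and 1.66-fold in cerebellum. Of 6 proteases that cut collagen, Mmp8 rose 14.3-fold and Mmp9 4.27-fold in lung, Mmp14 fell 2.06-fold and Mmp2 1.67-fold, and 0 were called in cerebellum. Mmp8 and Mmp9 are also stored by neutrophils. At an unadjusted p under 0.05 in limma, 3 of the 6 were lower in dexamethasone cerebella.

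Markers of the cells that make fibrillar collagen were counted beside these results. As shares of all genes, 15.5% were called lower and 15.7% higher in lung, and 1.97% and 2.84% in cerebellum. Of 7 fibroblast markers, Fbln1 and Meox2 fell in lung and Pdgfra, Tcf21, Thy1, Fgf10 and Lsp1 were not called. Their mean level was 8.68 to 9.23 in dexamethasone lungs and 9.28 to 9.61 in vehicle lungs. Of 6 smooth muscle and myofibroblast markers 5 fell in lung, at 8.97 to 9.93 with dexamethasone and 10.5 to 10.87 with vehicle. All 5 proliferation markers fell in lung, at 7.21 to 7.93 with dexamethasone and 10.02 to 10.52 with vehicle. All 5 mesothelial markers rose there, at 8.92 to 9.3 with dexamethasone and 8.07 to 8.42 with vehicle. In cerebellum 0 fibroblast, smooth muscle, mesothelial or proliferation markers were called, and 0, 2, 0 and 1 of them had an unadjusted limma p under 0.05. In vehicle cerebella the mean level was 5.95 to 6.06 for smooth muscle and 5.08 to 5.25 for mesothelial markers, where the median gene was 7.42. The fibroblast markers ran from Tcf21 at 4.61 to Pdgfra at 10.89 there, and Thy1 was 10.49, against 6.97 in vehicle lung. These counts therefore do not show that such cells were unchanged in cerebellum. Of 9 meningeal markers 1 fell in cerebellum, Foxc1, 1.54-fold, and their mean level was 8.3 to 8.55 with dexamethasone and 8.13 to 8.94 with vehicle. In lung 2 of the 9 fell and 1 rose, and 0 of 4 Schwann cell markers were called in either organ (1 in each at an unadjusted limma p under 0.05). Their part in the change of the collagen chains was not tested.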

How the data were processed

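Per the labels' protocols, biotin-labelled cRNA of the 16 samples was put on mouse arrays made by Affymetrix. The authors deposited log2 signals. The method was RMA, per the submitters' processing notes, and neither version nor settings are named. RMA values exist also for probe sets whose transcript is absent, and differences between dim probe sets are compressed.

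Of 45101 probe sets, 34945 had 1 gene symbol, 932 several and 9160 none, and 64 were controls. Symbols were updated through gene identifiers, and 18032 of 18193 genes took theirs from RefSeq. For a gene with several probe sets the brightest on average over all arrays was used; 27 of the 42 collagen genes had more than 1. No gene was left out for a low signal: 18 of the 42 lay above the median gene (7.42) and 24 below.

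The linear model (limma 3.58.1, R 4.3.3) held 1 mean per group, moderated variances (eBayes) and 12 residual degrees of freedom. For each contrast, Benjamini-Hochberg adjustment ran over 18193 genes. A log2 change carries its moderated standard error, and a group its SD. Arrays give no read depth, and 4 a group limit the precision. The hybridization date in the labels is malformed and the same for all arrays, so no batch could be tested.

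Array values or their ranges were given for a set of 26 collagen genes: up to 4 called members of each class and organ with the smallest adjusted p (the brightest where none was called), chains of common heterotrimers, and the 3 largest organ differences each way. The members, the gene lists and this rule were chosen with earlier results of these data known. Alternatives used a gene's other probe sets, left out dim genes, repeated the normalization by quantiles or cyclic loess, fitted the compared groups alone, added a robust variance trend, weighted the arrays, adjusted for Xist, or omitted 1 array at a time. The chain pairs and their next brightest probe sets were added after the data were seen. Motifs were searched with Python 3.11.15.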

Additional observations from a re-analysis of the deposited data

Results flagged for a closer look

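Of 112 group values of 28 collagen genes tested by Dixon's criterion (the gap to the nearest array over the range of the 4), 7 arrays stood apart, 6.25%, where chance gives about 1 in 20. In dexamethasone lung these were Col6a3 at 9.73 and Col27a1 at 7.96, both in B46. In vehicle lung, Col1a2 at 13.51 and Col23a1 at 8.63 stood apart, both in B19. In dexamethasone cerebellum they were Col1a1 at 8.23 in B50 and Col3a1 at 10.45 in B39, and in vehicle cerebellum Col1a1 at 9.17 in B80. Without B46 the lung log2 change of Col6a3 was -0.485, against -0.998 with it, and that of Col27a1 was -0.96, against -1.16.

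The log2 change in lung minus that in cerebellum passed the test of the difference for 10 chains. It was positive for Col17a1 (1.70), Col2a1 (1.11), Col23a1 (0.92) and Col6a1 (0.855). It was negative for Col27a1 (-1.16), Col5a1 (-1.003), Col1a2 (-0.95), Col24a1 (-0.83), Col6a4 (-0.75) and Col16a1 (-0.73).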

How the results depend on the processing

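The count of chains called in lung, 18, stayed within 12 to 21 under other settings and within 15 to 19 when single arrays were left out. In cerebellum the 9 became 14 with array weights and 14 without dexamethasone lung B46, and 5 without vehicle B79 and 5 without vehicle B81, a range of 5 to 14. The 10 chains that differed between organs ranged over 7 to 14 under other settings and 8 to 11 without single arrays. Between vehicle lung and vehicle cerebellum the 31 called became 16 when genes under the median level were left out, and ranged over 29 to 33 without single arrays. That filter left out 24 of the 42 chains, and 16 of the 18 that remained were called. The lowest counts under other settings in lung, 12, and for the difference between organs, 7, came from the same filter.

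Of 72 results for named chains, 43 were called: 33 were called in every alternative, 10 were lost in some and 0 changed sign. Of those not called, 9 passed in some alternative and 9 changed sign, their log2 changes lying between -0.176 and 0.103 before. In lung, the mean of probe sets gave 0.037 for Col26a1, -0.074 for Col4a4, 0.416 for Col4a5, which was then called (limma adjusted p = 0.0182), and 0.032 for Col6a2. Cyclic loess gave 0.028 for Col4a5 and 0.05 for Col6a2, and array weights gave 0.009 for Col4a5 and 0.166 for Col6a2. In cerebellum, array weights gave 0.076 for Col27a1 and 0.018 for Col4a6, and Xist as a covariate gave -0.054 for Col24a1. Leaving out single arrays gave ranges in lung of -0.094 to 0.038 for Col4a5, -0.125 to 0.261 for Col6a2, -0.163 to 0.067 for Col2a1 and -0.006 to 0.212 for Col4a4. In cerebellum they were -0.055 to 0.071 for Col27a1, -0.113 to 0.081 for Col4a6, -0.203 to 0.018 for Col13a1 and -0.109 to 0.136 for Col24a1.

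For chain pairs, the next brightest probe sets gave a shift in lung of 0.79 for Col1a1 minus Col1a2 and 0.082 for Col4a1 minus Col4a2, and in cerebellum of 0.124 for Col4a1 minus Col4a2 and -0.153 for Col6a1 minus Col6a2. Without single arrays Col4a1 minus Col4a2 ranged over -0.106 to 0.014 in lung and -0.061 to 0.01 in cerebellum, and Col6a1 minus Col6a2 over -0.062 to 0.068 in cerebellum. The causes were not tested. No paired analysis was possible because the groups share no replicate numbers.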

Other observations

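Several collagen genes are neighbours on their chromosomes in the RefSeq annotation, and the members of a pair did not all move alike. Col3a1 and Col5a2, next to each other on chromosome 1, had log2 changes of -0.88 and -0.93 in lung and -0.996 and -0.91 in cerebellum. Col4a3 and Col4a4, whose annotations overlap by 114 bases on chromosome 1, had 0.96 and 0.10 in lung and 0.27 and -0.265 in cerebellum. On chromosome 9, Col6a4 had -1.01 and Col6a5 -0.04 in lung, where Col6a5 was near the lowest signals. Col4a5 and Col4a6, beside each other on the X chromosome, had -0.02 and 0.44 in lung and -0.315 and -0.03 in cerebellum. Their other probe sets had 0.85 and -0.05 in lung, the reverse order, so the lung contrast of Col4a5 and Col4a6 depends on the probe set. These are descriptions of few pairs, with no test.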
